A study of Mus musculus with 2 samples.

Results

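The mitosis genes described here are 35 genes whose products carry a cell from entry into mitosis to the separation of its daughters, and they were chosen by name, from a fixed list, in the donor T cells of mice with graft-versus-host disease. All 35 were among the 31053 genes of the count matrix, and together they took 74424 of its unique molecular identifier (UMI) counts, or 0.228%. Lethally irradiated Balb/c recipients had been given C57BL/6 (B6) bone marrow, 5000000 cells, and B6 splenocytes that held 800000 alpha beta T cells, and the cells were taken from the colon at day 21. The colons of 5 mice were pooled before T cells of donor origin were sorted as H2-Kb+ and TCR-B+, so all of the values below come from 1 sample, and no control sample is used here. The groups compared are classes of cells within it. The CD4 class (a Cd4 UMI and none of Cd8a or Cd8b1) held 1861 of the 5333 kept cells, the CD8 class (a Cd8a or Cd8b1 UMI and none of Cd4) held 2391, cells with UMIs of both lineages numbered 301 and cells with neither 780. The titles name CD4 T cells alone, whereas the CD4 class made up 34.9% of kept cells and the CD8 class 44.8%.

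Mitosis is driven by the kinase Cdk1 bound to cyclins of the A and B types, which leads to chromosome condensation, spindle assembly and the attachment of each chromosome to the spindle through its kinetochore. The spindle checkpoint holds the anaphase-promoting complex inactive until all chromosomes are attached, after which cyclin B is destroyed and the central spindle guides the cleavage of the cell. Most of these genes are silent in resting cells and are transcribed late in the cycle, and donor T cells that recognise recipient antigens are known to divide strongly in graft-versus-host disease.

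The RNA library held 32772424 UMIs over 5348 barcodes, each with 2549 to 39138, and the kept cells had medians of 4800 UMIs and 1804 genes. The second library, of T cell receptor (TCR) sequences, was made from that cDNA and shared 5143 of its 5990 barcodes with the RNA library and gave 2628 kept cells a clonotype. With 1 pooled sample there is no replicate and no test. Every interval below is a 95% interval that covers counting error only, exact Poisson for a level, exact conditional binomial for a ratio of levels and Clopper-Pearson for a share of cells. A level is the sum of UMIs of a gene over a class per 10000 UMIs of that class, and fewer cells with a transcript cannot be told apart from fewer transcripts per cell in such a sum.

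Short promoter sequences of a few members are shown because late cell cycle genes are known for a shared element, the cell cycle genes homology region (CHR), and for CCAAT boxes upstream of it. RefSeq promoter windows of the GRCm38.p6 build, from 250 bases before to 50 bases after the start of the gene, were at hand for 30 of the 35 members, and those of Kif20a, Tpx2, Aurkb, Spc24 and Ccna2 were not used here. Below, the CHR (TTTGAA) and the CCAAT box are in capitals, on either strand, and each sequence runs 5′ to 3′ on the strand of its gene. Ccnb2 lies at chr9:70421505-70421804 on the minus strand, Cdc20 at chr4:118437294-118437593 on the minus strand, Plk1 at chr7:122159185-122159484 on the plus strand, Ube2c at chr2:164769679-164769978 on the plus strand and Nusap1, shown as a member with neither motif, at chr2:119618048-119618347 on the plus strand.
Ccnb2: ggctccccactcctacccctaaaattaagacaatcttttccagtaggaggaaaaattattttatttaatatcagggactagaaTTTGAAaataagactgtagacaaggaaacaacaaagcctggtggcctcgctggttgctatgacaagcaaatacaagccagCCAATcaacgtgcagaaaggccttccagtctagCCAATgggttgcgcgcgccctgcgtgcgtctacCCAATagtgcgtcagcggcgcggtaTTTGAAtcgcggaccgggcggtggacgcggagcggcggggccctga
Cdc20: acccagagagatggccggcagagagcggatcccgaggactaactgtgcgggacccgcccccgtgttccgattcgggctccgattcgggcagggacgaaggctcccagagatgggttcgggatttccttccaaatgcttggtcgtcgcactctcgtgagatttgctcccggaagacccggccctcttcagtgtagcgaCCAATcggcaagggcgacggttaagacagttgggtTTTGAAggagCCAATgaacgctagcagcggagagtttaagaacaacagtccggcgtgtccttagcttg
Plk1: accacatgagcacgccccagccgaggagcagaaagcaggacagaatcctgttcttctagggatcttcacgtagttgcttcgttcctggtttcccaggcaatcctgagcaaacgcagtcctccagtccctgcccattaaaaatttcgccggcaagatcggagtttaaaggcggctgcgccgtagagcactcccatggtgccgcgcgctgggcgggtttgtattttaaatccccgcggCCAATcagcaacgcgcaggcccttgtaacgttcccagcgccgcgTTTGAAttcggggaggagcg
Ube2c: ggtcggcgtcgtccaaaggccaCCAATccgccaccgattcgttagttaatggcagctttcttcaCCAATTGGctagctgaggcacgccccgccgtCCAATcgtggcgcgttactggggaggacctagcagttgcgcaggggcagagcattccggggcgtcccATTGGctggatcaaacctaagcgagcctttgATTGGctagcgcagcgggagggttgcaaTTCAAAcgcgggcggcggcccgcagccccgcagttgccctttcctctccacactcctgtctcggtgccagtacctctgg
Nusap1: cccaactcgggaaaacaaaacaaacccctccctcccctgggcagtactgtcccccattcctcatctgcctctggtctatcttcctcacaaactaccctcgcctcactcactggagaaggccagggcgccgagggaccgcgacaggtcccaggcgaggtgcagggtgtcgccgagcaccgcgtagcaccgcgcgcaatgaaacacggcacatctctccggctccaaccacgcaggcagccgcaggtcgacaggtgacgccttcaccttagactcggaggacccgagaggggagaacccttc

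A TTTGAA on either strand was present in 24 of the 30 member promoters, or 80%, against 18.1% of all 27025 promoters of the same length. The element nearest the gene's start lay within 50 bases of it in 22 of those 24 promoters, with a median position of 6 bases after the start. CCAAT on either strand was found in 23 of 30 members, or 76.7%, against 37.9% of all promoters, and both motifs together in 20 of 30, or 66.7%, against 7.12%. In 44 other mitosis genes, which are no members, TTTGAA was present in 24, and in 29 DNA replication genes in 3, or 10.3%. CCAAT was common in these lists as well, in 30 of the 44 genes, or 68.2%, and in 17 of the 29, or 58.6%. For E2F factors the letters TTCCCGC were searched together with the variants written TTGGCGC, in addition TTGCCGC, and further TTCGCGC. Their order among the lists was the opposite, with 5 of 30 members, or 16.7%, against 17 of 29 replication genes, or 58.6%, and 9.69% of all promoters. Birc5, Bub1, Ccnb1, Cenpe, Nuf2 and Nusap1 had no TTTGAA in this window. A variant of the CHR, TTCGAA, was present in 3 of 30 members, Bub1 among them, or 10%, against 1.57% of all promoters. A match of letters is a description of the window and was not tested for factor binding.

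The members were found together in the same cells. Each cell was thinned to 2000 UMIs to put all cells at the same depth. Mki67, the proliferation antigen that coats mitotic chromosomes, was detected in 63.9% of cells with UMIs of 3 or more of the other 34 members and in 4.19% of cells with none of them. Birc5 (survivin), a subunit of the chromosomal passenger complex, was detected in 57.4% and 0.896% of these cells, and Ccna2, the A-type cyclin of S phase and early mitosis, in 48.9% and 0.217%. Cenpf, a kinetochore protein, was detected in 33.4% and 0.217%. No cell type known to lack these genes was identified in the sort, so the cells without any other member serve here for comparison. A UMI in them may be free RNA or the cell's own transcript, which was not tested. In 27 of the 35 members the share in these cells was under 1%.

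The share in cells without other members was highest for Cenpa, the histone H3 variant of centromeres. It was detected in 60.5% of cells with 3 or more other members and still in 12.6% of cells with none. Ube2c, with 7676 UMIs against 7391 for Cenpa, was detected in 3.49% of such cells. Top2a (7285 UMIs), the topoisomerase that untangles sister chromatids, followed Cenpa at 61.6% and 6.43%. After Mki67 (7149 UMIs) came Racgap1 (2573 UMIs), a regulator of the cleavage furrow, at 31.8% and 4.13%. The part of total UMIs in these shares was not tested. Bub1, Kif4, Hmmr, Nuf2 and Ttk were each seen in 0 of 2765 cells without other members. A floor of 3 cells gives a share of 0.108%, and the Clopper-Pearson upper bound was 0.133%. Of the UMIs of a member, the share that came from cells with 3 or more other members had a median of 93.5% over the 35 genes, from 74.1% for Cenpa to 98.4% for Kif2c, a microtubule-depolymerising kinesin of the centromere.

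A cell was called mitotic here when it held UMIs of at least 3 different members after thinning. The name stands for this range of a score and for no phase or type, and the class is set by the members themselves. By this rule 940 of 5333 kept cells were mitotic, or 17.6% (16.6 to 18.7), and they held 90.5% of all member UMIs. The distribution had a long tail, with 0 members in 2765 cells, 1 in 1307, 2 in 321, 3 in 126, 4 in 78, 5 to 9 in 342 and 10 or more in 394, up to 23. Cells just outside and just inside the threshold, with exactly 2 or exactly 3 members, thus numbered 447. The 266 cells richest in member UMIs (5% of kept cells) held 52.6% of them, and the top 20% held 93.5%. Mitotic cells were also deeper, with a median of 9855 UMIs against 4377 in other cells.

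**Figure D1:**
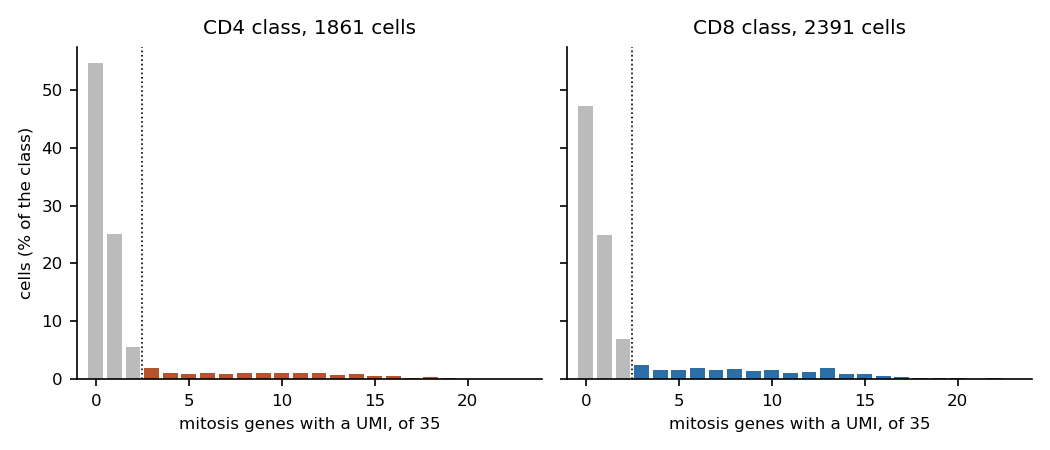
Share of cells (vertical axis, % of the class) by the number of mitosis genes with a UMI after thinning to 2000 UMIs (horizontal axis), for the CD4 class on the left and the CD8 class on the right. Coloured bars right of the dotted line are the cells called mitotic, 14.7% of the CD4 class and 21.0% of the CD8 class, and grey bars are the other cells.

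Fewer cells of the CD4 class than of the CD8 class were mitotic. The CD4 class held 273 mitotic cells of 1861, or 14.7% (13.1 to 16.4), and the CD8 class 502 of 2391, or 21.0% (19.4 to 22.7). The median depth of the classes was close, at 4768 UMIs in CD4 and 4910 in CD8 cells. Cells with UMIs of both lineages had 23.6% mitotic cells (18.9 to 28.8) and a median of 7939 UMIs, and 26.2% of them carried 2 or more productive TRB chains. Cells with neither had 12.1% (9.85 to 14.5) and a median of 3955 UMIs. The CD4 share was the lower of the pair under all 14 alternatives tried, with a log2 ratio between -0.56 and -0.15. The value nearest 0 came when the class was set by 3 or more genes of the list of other mitosis genes in place of the members, with 29.0% of CD4 and 32.3% of CD8 cells.

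The summed level of the 35 members was 22.3 UMIs per 10000 in CD4 (22.1 to 22.6) and 25.2 in CD8 cells (24.9 to 25.4), a ratio of 0.888 (0.874 to 0.902). Of the 35 genes, 34 had a CD4 over CD8 ratio below 1, and 1, Ttk, was lower by 1.5-fold or more, where 8.47% of the 11186 genes measured were lower and 9.99% higher by that much; 0 members were higher by that much. The median log2 ratio of the members was -0.19, against -0.04 over all genes. Where the classes were set by 2 or more UMIs of the lineage genes in place of 1, the log2 ratio of the summed level was -0.0057 and 19 of 35 members had a ratio below 1, and the mitotic shares were then 16.8% and 21.0%. In the list of 37 DNA replication genes the CD4 level was 18.7 and the CD8 level 22.3, a ratio of 0.837 (0.822 to 0.852).

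**Figure D2:**
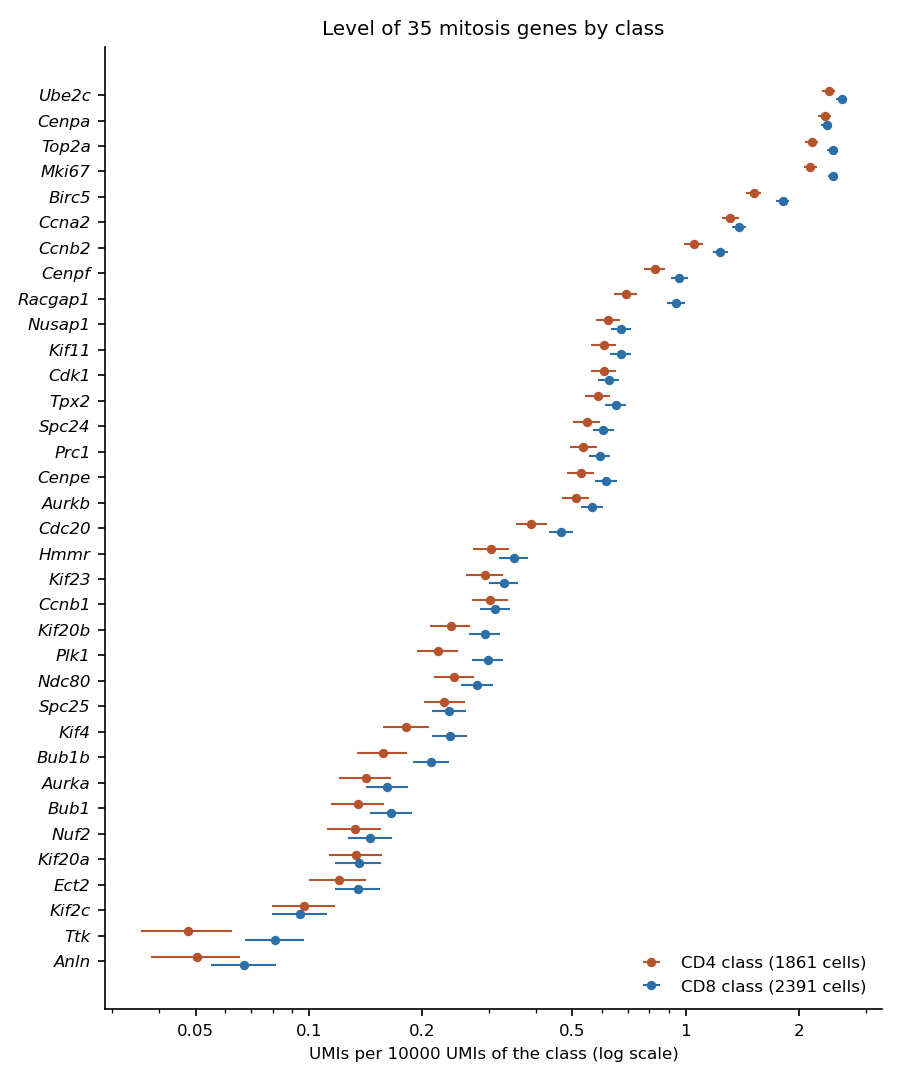
Level of each of the 35 mitosis genes (horizontal axis, UMIs per 10000 UMIs of the class, log scale) in the CD4 class and the CD8 class, with exact 95% Poisson intervals. With the exception of Kif2c each CD4 point lies left of its CD8 point, mostly by little, and the widest gap is that of Ttk (0.048 and 0.081). With classes set by 2 or more lineage UMIs, 19 of 35 ratios are below 1.

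Among the regulators of entry and exit, Ube2c, the ubiquitin-conjugating enzyme of the anaphase-promoting complex (chr2:164769898-164778822, mm10), stood at 2.39 UMIs per 10000 in CD4 and 2.59 in CD8 cells. Ccna2 stood at 1.31 in CD4 and 1.38 in CD8 cells. Of the B-type cyclins, Ccnb2 was at 1.05 in CD4 and 1.23 in CD8 cells, and Ccnb1 at 0.302 and 0.312. The catalytic partner of these cyclins, Cdk1, had a level of 0.606 in CD4 and 0.625 in CD8 cells. Cdc20, the activator of the anaphase-promoting complex, was at 0.389 in CD4 and 0.467 in CD8 cells. Of the kinases, Aurka, which matures the centrosomes, was at 0.141 in CD4 and 0.161 in CD8 cells, a ratio of 0.875 (0.711 to 1.07), and Plk1, which acts from entry to cytokinesis, at 0.220 and 0.298, a ratio of 0.736 (0.627 to 0.863). The 8 genes together had a ratio of 0.907 (0.880 to 0.935).

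The chromosome proteins and checkpoint genes came next. Mki67 (chr7:135689784-135716361) stood at 2.14 in CD4 and 2.46 in CD8 cells and Top2a (chr11:98992943-99024189) at 2.15 and 2.45. Birc5 was at 1.51 in CD4 and 1.81 in CD8 cells, and Aurkb, the kinase of the same complex, at 0.510 and 0.564. Of the checkpoint kinases and their relatives, Bub1 was at 0.135 in CD4 and 0.165 in CD8 cells and Bub1b at 0.157 and 0.211. Ttk (chr9:83834689-83872389), the kinase that starts the checkpoint signal at unattached kinetochores, had 53 UMIs in CD4 and 122 in CD8 cells, levels of 0.048 and 0.081, and a ratio of 0.586 (0.416 to 0.816). Passenger complex and checkpoint genes together had a ratio of 0.835 (0.795 to 0.877).

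Kinetochore genes lay nearest to equal levels, with a ratio of 0.930 (0.898 to 0.963) over 7 genes. Cenpa gave 2592 of their 5371 UMIs in CD4 and 3541 of 7794 in CD8 cells, so the place of the group leans on that gene. Cenpa (chr5:30666777-30674830) stood at 2.33 in CD4 and 2.36 in CD8 cells, a ratio of 0.988 (0.938 to 1.04). Cenpf was at 0.826 in CD4 and 0.960 in CD8 cells, and Cenpe, the kinesin that moves chromosomes to the equator, at 0.527 and 0.614. The 4 subunits of the Ndc80 complex, which binds microtubules, had ratios of 0.869 to 0.971 with overlapping intervals, with Spc24 at 0.546 in CD4 and 0.604 in CD8 cells, Ndc80 at 0.243 and 0.280, Spc25 at 0.229 and 0.236, and Nuf2 at 0.132 and 0.145.

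Spindle motors and microtubule-binding proteins had a ratio of 0.895 (0.851 to 0.940) over 6 genes. Nusap1, a microtubule bundler, stood at 0.622 in CD4 and 0.674 in CD8 cells, Kif11, which pushes the poles apart, at 0.605 and 0.671, and Tpx2, an activator of Aurka, at 0.583 and 0.651. Hmmr, a spindle-associated protein, was at 0.304 in CD4 and 0.349 in CD8 cells, the chromokinesin Kif4 at 0.181 and 0.236, and Kif2c at 0.097 and 0.095, a ratio of 1.03 (0.791 to 1.33).

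Genes of the central spindle and cytokinesis had the lowest group ratio, 0.827 (0.785 to 0.871) over 7 genes. Racgap1 gave 768 of their 2288 UMIs in CD4 and 1411 of 3733 in CD8 cells, so the place of the group leans on that gene. Racgap1 (chr15:99620496-99651656) stood at 0.691 in CD4 and 0.941 in CD8 cells, a ratio of 0.734 (0.672 to 0.802). Its partner in the centralspindlin complex, the kinesin Kif23, was at 0.293 in CD4 and 0.328 in CD8 cells, and Ect2, the exchange factor that centralspindlin recruits, at 0.120 and 0.135. Prc1, which bundles the midzone microtubules, was at 0.535 in CD4 and 0.591 in CD8 cells, the kinesin Kif20b at 0.238 and 0.293, and Kif20a, which carries the passenger complex to the midzone, at 0.133 and 0.135, a ratio of 0.984 (0.790 to 1.22). Anln, a scaffold of the cleavage furrow, had 56 UMIs in CD4 and 101 in CD8 cells.

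Within mitotic cells the order of the classes turned round. Over mitotic cells alone, the summed member level was 73.1 UMIs per 10000 in CD4 and 64.6 in CD8 cells, a ratio of 1.13 (1.11 to 1.15), and a mitotic cell held 82.7 member UMIs on average in CD4 and 68.5 in CD8. To keep a gene from choosing its own cells, each member was also compared over cells with 3 or more of the other 34. The CD4 over CD8 ratio was then above 1 for 29 of 35 members, with a median of 1.12. It was 1.26 for Cenpa (1.19 to 1.34), 1.25 for Ccnb1, 1.21 for Ccna2 and 1.20 for Ube2c (1.14 to 1.27). Ttk stayed below 1 at 0.772 (0.545 to 1.08), as did Anln, Bub1b, Plk1, Kif4 and Kif20b. No share over all genes is given for this comparison within mitotic cells, and it was not repeated under the alternatives. Its UMIs came from 273 mitotic CD4 and 502 mitotic CD8 cells, and the spread between cells is not in the intervals.

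Most mitotic cells also carried transcripts of DNA replication, the step before mitosis. With the same thinning, 3 or more genes of the replication list were detected in 207 of 273 mitotic CD4 cells, or 75.8% (70.3 to 80.8), and in 390 of 502 mitotic CD8 cells, or 77.7% (73.8 to 81.3). Mitotic cells without that replication signal were 3.55% of CD4 and 4.68% of CD8 cells, and cells with replication genes alone made up 15.6% and 15.9%. The replicating call, too, stands for a range of a score and for no phase. Of the 1018 CD4 cells with 0 members, 90 held exactly 3 replication genes and 32 exactly 4, close to the limit of the call. The share of replicating cells that were also mitotic was 41.6% among CD4 (37.2 to 46.0) and 50.6% among CD8 cells (47.1 to 54.2). Cells that were neither made up 69.7% of the CD4 class and 63.1% of the CD8 class. The share with both depends on the counting rule, and with 5 or more genes required of either list it was 58.1% in each class.

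Members differed in how often their cells carried replication genes. Among members found in at least 200 mitotic cells, Cdc20 had the lowest share. Of the mitotic cells with a Cdc20 UMI, 61.7% were replicating (54.6 to 68.4), and low values were also seen for Ccnb2 at 67.9%, Cenpa at 68.2% and Ube2c at 71.1%. At the other end stood Aurkb at 86.4% (81.2 to 90.7), Spc24 at 86.0%, Kif11 at 84.3% and Top2a at 83.0%. The mitotic cells of these 8 genes held a median of 10 to 12 member genes. Members found in fewer cells reached further, with 27 of 30 mitotic cells replicating for Ttk and 28 of 32 for Anln.

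Effector genes were set against mitosis within each class, by the share of mitotic cells among cells with and without a UMI of the gene after thinning. A gene was called when the shares differed by 1.5-fold or more. In the CD4 class 8 of the 19 genes with at least 20 positive cells were called, all 8 lower in positive cells, where 15.7% of 6327 genes were lower and 12.5% higher by that much. In the CD8 class 5 of 14 were called, 2 higher and 3 lower, where 10.6% of 7019 genes were higher and 11.9% lower. The genes of the background had at least 50 cells on either side. Of the genes called in the CD4 class, Il10, Ccl5 and Fasl met that limit. Il22, Foxp3, Il13, Il4 and Prf1, with 20 to 45 positive cells, did not, so the count and its background are not on equal terms there. The genes called in the CD8 class all met it. Free RNA can give a droplet UMIs of effector genes that its cell does not express, and its part in these groups was not tested.

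**Figure D3:**
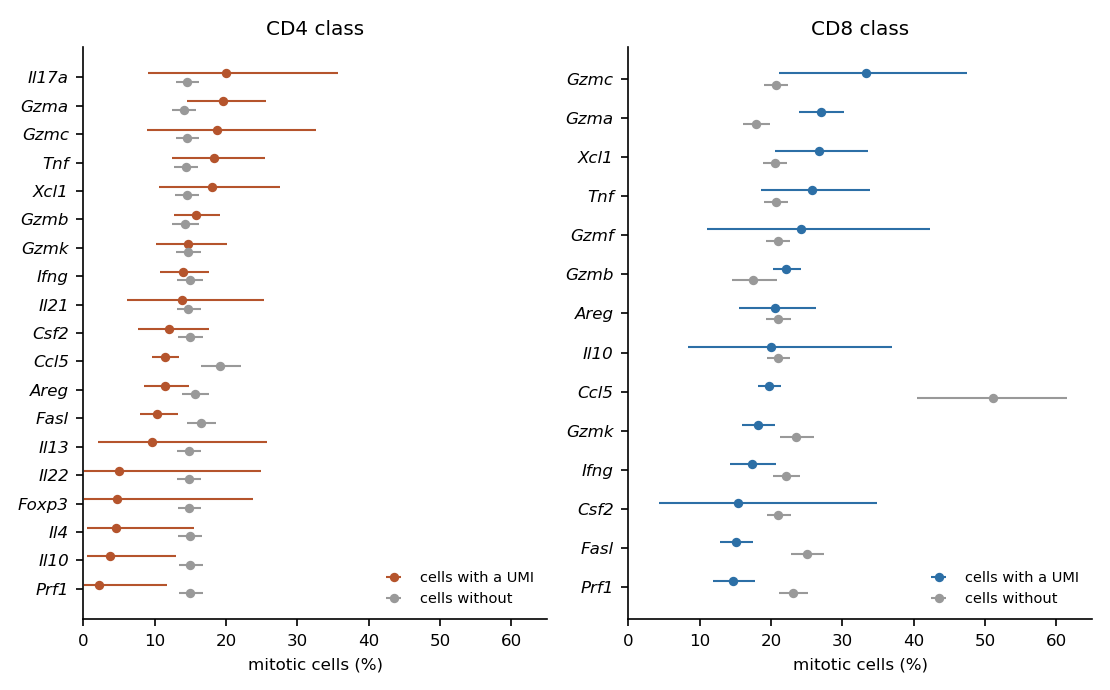
Share of mitotic cells (horizontal axis, %) among cells with a UMI of each effector gene (coloured) and among cells without (grey), after thinning to 2000 UMIs, in the CD4 class on the left and the CD8 class on the right, with 95% Clopper-Pearson intervals. The widest gap is that of Ccl5 in the CD8 class, 19.8% with and 51.1% without.

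The mitotic share of cytokine-positive CD4 cells differed by gene in its direction. Cells with a UMI of Ifng, the main cytokine of type 1 responses, were mitotic in 58 of 417 cases, or 13.9% (10.7 to 17.6), against 14.9% without, and cells with Tnf in 18.2% (12.4 to 25.4) against 14.4%. Csf2-positive cells, which make the growth factor GM-CSF, were mitotic in 22 of 184 cases, or 11.96% (7.65 to 17.5), against 14.97% without. Il17a, the signature cytokine of Th17 cells, gave 8 of 40 cells (interval 9.05% to 35.6%), against 14.6%. Il22, made by the same kind of cell, gave 1 of 20 (interval 0.127% to 24.9%), against 14.8%. Without thinning the log2 ratios of shares turned to 0.57 for Ifng and 0.80 for Il22.

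Low shares were seen after thinning for Il10, a regulatory cytokine, and Il4, of type 2 responses. Il10-positive CD4 cells were mitotic in 2 of 53 cases, or 3.77% (0.460 to 12.98), against 14.99% without, yet 28.3% of them carried replication genes, against 26.7% without. With the other mitosis genes in place of the members, the log2 ratio for Il10 was -0.04. Il4-positive cells were mitotic in 2 of 44 cases, or 4.55% (0.555 to 15.5), Il13-positive cells, of which 38.7% carried replication genes against 26.6% without, in 3 of 31, and cells with Foxp3, the factor of regulatory T cells, in 1 of 21. These groups are small, and their intervals reach near or past the 14.7% of the class. Areg gave 11.4% with and 15.7% without, and Il21 gave 13.8% and 14.7%. The log2 ratio for Il13 turned to 0.64 without thinning and to 0.22 with clones weighted alike, and that for Areg to 0.19 and for Il21 to 0.59 without thinning.

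In the CD8 class Ifng-positive cells were mitotic in 99 of 571 cases, or 17.3% (14.3 to 20.7), against 22.1% without (20.3 to 24.1). Without thinning the log2 ratio of these shares was 0.42, in place of -0.35 after it. Cells with Tnf gave 25.7% (18.6 to 33.9) against 20.7%, and cells with the chemokine gene Xcl1 gave 26.7% (20.6 to 33.6) against 20.5%. Csf2 gave 4 of 26 cells and Il10 7 of 35, against 21.1% and 21.0% without, and without thinning their log2 ratios turned to 0.44 and 0.18. In 8 genes of the CD8 class and 3 of the CD4 class, Il2 and Lif among them in both, fewer than 20 cells were positive and no share is given.

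Granzyme genes, whose products enter the target cell, did not go one way. Gzma-positive cells of the CD8 class were mitotic in 218 of 807 cases, or 27.01% (23.98 to 30.2), against 17.9% without (16.1 to 19.9). Gzmc gave 18 of 54 cells, or 33.3% (21.1 to 47.5), against 20.7%, Gzmb 22.2% (20.3 to 24.2) against 17.5% (14.6 to 20.8), and Gzmf 24.2% against 20.95%. Gzmk was on the other side with 18.2% (16.0 to 20.5) against 23.6% (21.2 to 26.0), a log2 ratio of -0.37 that turned to 0.71 without thinning. With clones weighted alike the log2 ratio of Gzmb turned to below 0. By level, the Gzmb share of the CD8 class was 24.8% (21.5 to 28.3) with 4 to 9 UMIs and 16.4% (13.0 to 20.3) with 10 or more. In the CD4 class Gzma gave 19.6% (14.5 to 25.7) against 14.0%, Gzmc 18.8% against 14.6%, Gzmb 15.7% against 14.3% and Gzmk 14.6% against 14.7%. Cells positive for Gzma were deeper among CD8 cells, with medians of 5626 UMIs with and 4562 without, and the part of depth beyond the thinning was not tested.

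The genes of perforin and of the Fas ligand, the death receptor ligand of killer cells, were on the low side in both classes. Prf1-positive CD8 cells were mitotic in 87 of 595 cases, or 14.6% (11.9 to 17.7), against 23.1% without (21.2 to 25.1), and Fasl-positive CD8 cells in 146 of 970, or 15.1% (12.9 to 17.5), against 25.1% (22.8 to 27.4). In the CD4 class Prf1 gave 1 of 45 cells, against 14.98% without, and Fasl 10.4% (7.91 to 13.2) against 16.4%. Without thinning the log2 ratios for Prf1 and Fasl in the CD8 class were 0.17 and 0.21 and those in the CD4 class 0.20 and 0.14, and the mitotic CD8 cells were the deeper ones, with a median of 9751 UMIs against 4389. Counted per cell without thinning, a mitotic CD8 cell held 1.13 Prf1 UMIs and 1.67 Fasl UMIs, against 0.941 and 1.42 in other CD8 cells.

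Ccl5, the chemokine of effector T cells, had the share ratio farthest from 1 among the effector genes given for the CD8 class. Cells with 10 or more Ccl5 UMIs after thinning, 1801 of the CD8 class, were mitotic in 10.9% (9.53 to 12.5). With 4 to 9 UMIs the share was 51.0% (45.2 to 56.8), with 1 to 3 it was 53.0% (45.8 to 60.1) and with 0 it was 51.1% (40.5 to 61.5), so that the CD8 cells split at a high level of the gene rather than by its presence. Those 3 lower groups were deeper, with medians of 7720 to 8517.5 UMIs against 4439, and the part of depth was not tested. In the CD4 class the shares were 19.2% with 0 UMIs, 18.9% with 1 to 3, 8.83% with 4 to 9 and 4.21% (2.38 to 6.85) with 10 or more.

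The difference for Ccl5 was also seen in counts without thinning. A mitotic CD8 cell held 48.6 Ccl5 UMIs on average against 92.0 in other CD8 cells, and a mitotic CD4 cell 10.4 against 18.2, although mitotic cells were the deeper ones. The level ratio of mitotic over other cells was 0.255 in each class. Without thinning, the log2 ratio of mitotic shares in CD4 cells with over without any Ccl5 UMI was 0.20, opposite to that after thinning.

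**Figure D4:**
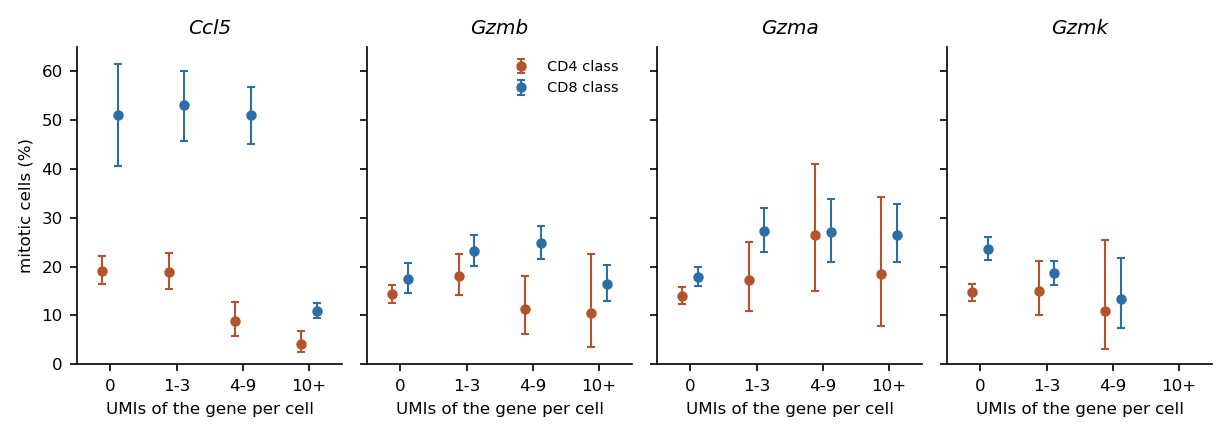
Share of mitotic cells (vertical axis, %) by the number of UMIs of Ccl5, Gzmb, Gzma and Gzmk in the cell after thinning to 2000 UMIs (horizontal axis, groups under 20 cells left out), in the CD4 and the CD8 class, with 95% Clopper-Pearson intervals. For Ccl5 the CD8 class stands at 51.0% to 53.0% below 10 UMIs and at 10.9% from 10 UMIs on. No step of that size is seen for the granzyme genes. A smaller drop is that of Gzmb in the CD8 class, from 24.8% at 4 to 9 UMIs to 16.4% at 10 or more.

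Clones gave a further view, since cells of a clone descend from 1 T cell and share their receptor. Clonotypes were defined by the productive TRA and TRB sequences, and 826 were found. In the CD4 class cells of expanded clonotypes, with 2 or more kept cells, were mitotic in 134 of 672 cases, or 19.9% (16.98 to 23.2), against 30 of 213 cells of clonotypes seen a single time, or 14.1% (9.71 to 19.5). In the CD8 class the shares were 24.1% (21.5 to 26.9) in expanded and 23.97% (18.7 to 29.9) in single clonotypes. No steady order by size was seen, with 26.5%, 16.1% and 19.9% of CD4 cells and 22.1%, 23.3% and 25.1% of CD8 cells in clonotypes of 2 to 4, 5 to 19 and 20 or more cells. Cells without a clonotype had lower shares, 11.2% in CD4 and 17.5% in CD8, and were shallower, at medians of 4515.5 and 4299 UMIs against 5065 and 5558 in expanded clonotypes.

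Single clones differed far more than size classes did. Of the 19 clones with 20 or more cells, 12 were of CD4 and 7 of CD8 lineage. The TRB CDR3 sequences of 5 that stand at the ends of the range are given here 5′ to 3′ in lower case, as the identity of each clone.
CD4 clone 4: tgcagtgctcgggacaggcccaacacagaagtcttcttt
CD4 clone 1: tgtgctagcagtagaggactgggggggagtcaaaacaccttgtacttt
CD4 clone 2: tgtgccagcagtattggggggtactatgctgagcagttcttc
CD8 clone 2: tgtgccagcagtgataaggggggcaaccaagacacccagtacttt
CD8 clone 3: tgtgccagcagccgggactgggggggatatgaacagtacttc

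CD4 clone 4, with segments TRBV1 and TRBJ1-1, was mitotic in 26 of 54 cells, or 48.1% (34.3 to 62.2). CD4 clone 1 (TRBV17 and TRBJ2-4) and CD4 clone 2 (TRBV19 and TRBJ2-1) had 0 mitotic cells of 57 and of 55, which allows shares of up to 5.26% and 5.45%, with Clopper-Pearson bounds of 6.27% and 6.49%. Both of these clones held 10 replicating cells each, or 17.5% and 18.2%, against 51.9% in CD4 clone 4. Depth went the same way, with medians of 3694 and 3416 UMIs in clones 1 and 2 against 5892.5 in clone 4, and was not tested as a part of the difference beyond the thinning.

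Over the other CD4 clones the mitotic share ran from 10.3% in clone 7 to 36.4% (17.2 to 59.3) in clone 11, with 34.8% in clone 6 and 32.1% in clone 8. Among the CD8 clones, clone 2 (TRBV13-1 and TRBJ2-5) was mitotic in 41 of 88 cells, or 46.6% (35.9 to 57.5), and clone 3 (TRBV4 and TRBJ2-7) in 7 of 83, or 8.43% (3.46 to 16.6). Clone 1, the largest, shared TRBV13-1 with clone 2 and was mitotic in 58 of 263 cells, or 22.1% (17.2 to 27.6). Clones 4 to 7 lay between 23.2% and 36.7%. Since a clone is 1 lineage of cells from a pool of mice, these values describe the clones and not a condition.

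**Figure D5:**
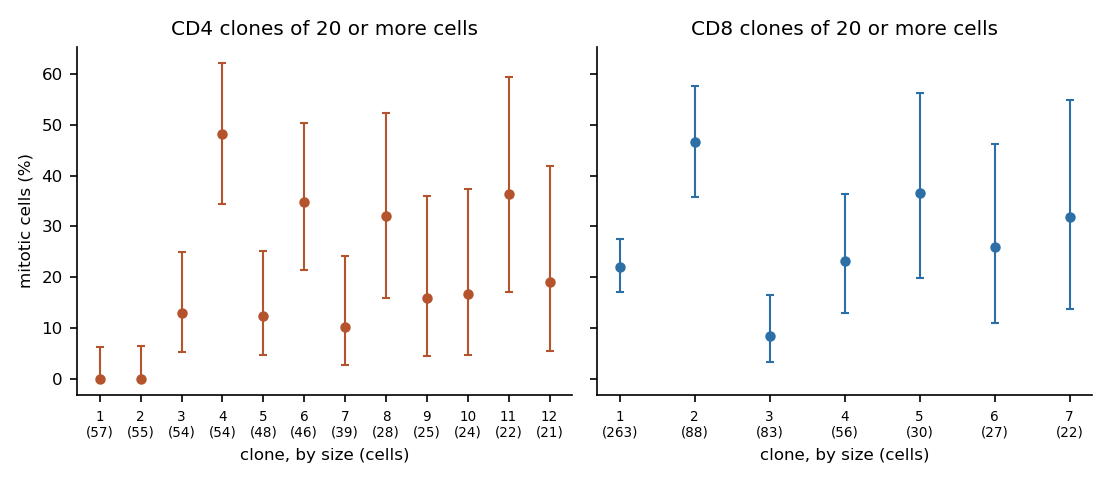
Share of mitotic cells (vertical axis, %) in each clone of 20 or more kept cells, CD4 clones on the left and CD8 clones on the right, in order of size with the number of cells in brackets, with 95% Clopper-Pearson intervals. CD4 clones 1 and 2 are at 0, CD4 clone 4 and CD8 clone 2 at 48.1% and 46.6%.

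The lower mitotic share at high Ccl5 was seen within the 6 of 8 clones that held mitotic cells. In CD8 clone 1, cells with 10 or more Ccl5 UMIs were mitotic in 22 of 206 cases, or 10.7% (6.82 to 15.7), and the others in 36 of 57, or 63.2% (49.3 to 75.6). CD8 clone 2 gave 18.9% (7.96 to 35.2) and 66.7% (52.1 to 79.2), CD8 clone 3 gave 2.82% and 41.7%, and CD8 clone 4 gave 5.26% and 61.1%. In CD4 clone 4, 0 of 7 cells with 10 or more Ccl5 UMIs were mitotic, against 55.3% of the others. A floor of 3 cells gives 42.9% for the 7 cells, and the Clopper-Pearson upper bound was 41.0%. CD4 clone 3 gave 3.57% (0.09 to 18.3) and 23.1% (8.97 to 43.6), and CD4 clones 1 and 2 had 0 mitotic cells at either level. In CD4 clones 3 and 4 the intervals of the 2 groups overlapped, and in CD8 clones 1 to 4 they did not. For Gzma, CD8 clone 1 gave 22.5% with and 21.9% without a UMI, and CD8 clone 2 gave 47.6% and 45.7%. CD8 clone 3 gave 2 of 28 and 5 of 55 cells and CD8 clone 4 gave 12 of 50 and 1 of 6, and within each of these 4 clones the intervals overlapped. For Fasl, CD8 clone 1 gave 20.3% with and 23.7% without, and CD8 clone 2 gave 26.1% (10.2 to 48.4) and 53.8% (41.0 to 66.3). The level of 10 UMIs was chosen after the values were seen.

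Genes outside the 35 were compared between mitotic and other cells of each class, which the members alone define. In the CD4 class 13.7% of 8882 genes were higher and 16.0% lower by 1.5-fold or more, and in the CD8 class 14.2% of 9310 were higher and 13.9% lower. Of 56 measured genes of other mitotic proteins 54 were higher in each class, with a median log2 ratio of 4.68 in CD4 and 4.28 in CD8 cells, against medians over all genes of -0.05 and -0.03. All 37 DNA replication genes were higher, with medians of 2.11 and 1.98, and so were 8 of 9 tubulin and stathmin genes. Outside these lists and the histone genes, the ratio with the highest lower bound in each class was that of Nek2, a kinase that separates the centrosomes. It had 189 UMIs in mitotic CD4 cells and 0 in the others, a ratio of 164 against a floor of 3 UMIs over the group, with a lower bound of 132. In CD8 cells it had 317 and 4 UMIs, a ratio of 144 (55.7 to 532).

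Over both classes together 13.7% of 10098 genes were higher and 15.4% lower, and the highest ratios were those of the histone gene Hist1h2af at 307-fold (54.3 to 12217), whose near-identical copies may share its reads, and of Nek2 at 266-fold (103 to 981). They were followed by Ankle1 at 206-fold (36.2 to 8227), Pimreg at 175-fold (84.5 to 438) and Cdc25c, the phosphatase that activates Cdk1, at 134-fold (45.2 to 655). Of 19 genes of cell cycle transcription, 11 were higher in mitotic CD4 and 13 in mitotic CD8 cells. Foxm1, an activator of late cell cycle genes, was 24.02-fold higher in CD4 (13.2 to 47.9) and 36.5-fold in CD8 (19.5 to 77.4), and Mybl2, which binds the same promoters, 9.06-fold and 8.27-fold. The inhibitor of G1 kinases Cdkn2c was 5.06-fold higher in CD4 (4.16 to 6.17) and 3.67-fold in CD8 (3.05 to 4.42).

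Of 15 measured genes of cell cycle brakes, 4 were higher and 5 lower in mitotic CD4 cells, and 4 higher and 6 lower in mitotic CD8 cells. Over all genes measured, 13.7% were higher and 16.0% lower in the CD4 class, and 14.2% and 13.9% in the CD8 class. Of 8 measured genes of memory T cells, 4 were lower in CD4 and 3 in CD8 cells and 0 higher in either. Btg1, an antiproliferative gene, had 6.86 UMIs per 10000 in mitotic CD4 cells against 19.1 in others, a ratio of 0.359 (0.343 to 0.375), and in the CD8 class 6.59 against 19.6, a ratio of 0.336. Il7r, the receptor of the survival cytokine IL-7, had a ratio of 0.320 in CD4 (0.293 to 0.350) and 0.247 in CD8 cells (0.220 to 0.278). Of the inhibitory receptors 6 of 9 measured in CD4 and 5 of 10 in CD8 cells were lower, and of the cytokines 11 of 24 and 5 of 14. These counts are of levels, and mitotic cells were the deeper ones. Per cell without thinning, a mitotic CD8 cell held 3.93 Pdcd1 UMIs against 3.26 in other CD8 cells, and 0.293 of Entpd1 against 0.252. Tigit was also higher per CD8 cell, and Lag3 was lower, at 1.03 against 1.12. In mitotic CD4 cells Lag3, Tigit, Pdcd1 and Tox were lower per cell too, with Pdcd1 at 1.24 against 1.35. Il10 in mitotic CD4 cells had 3 UMIs against 195, a ratio of 0.040 (0.008 to 0.118), and Il5 alone among the 24 cytokines was higher by 1.5-fold, at 2.70-fold (1.51 to 4.81).

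Of the granzyme and perforin genes 0 of 5 measured passed 1.5-fold in mitotic CD4 cells, while in mitotic CD8 cells 3 of 9 were higher, among them Gzmc at 2.21-fold (1.73 to 2.83), and 2 lower, Gzmf and Prf1. The level of Gzma was 18.6 in mitotic and 19.6 in other CD8 cells, although its positive cells were more often mitotic. Glycolysis genes were higher in 1 of 14 in CD4 and 7 of 14 in CD8 cells, where 13.7% and 14.2% of all genes were higher. Markers of myeloid cells moved with the classes as well. Their summed level was 0.761 UMIs per 10000 in mitotic and 2.98 in other CD4 cells, with 7 of 8 measured genes lower, and 0.999 against 1.86 in the CD8 class, with 6 of 9 lower. Genes of the dissociation response were lower in 12 of 16 in CD4 and 8 of 16 in CD8 cells, where 16.0% and 13.9% of all genes were lower. The part of either in the lower genes was not tested.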

How the data were processed

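The authors deposited the RNA library as UMI counts of each gene in each barcode, whole numbers without normalization, and the TCR table gives the deposited UMI and read counts of assembled contigs with the authors' chain, segment and CDR3 calls. Cell Ranger and mm10 are named per the submitters' processing notes, with a version not given in the sources used here. Kept cells had at least 500 genes and at most 10% mitochondrial UMIs. No doublet caller was run, and cells with 2 or more TRB chains, 232 in all, were left out as an alternative. Cells were thinned to 2000 UMIs without replacement, with a fixed seed, and no kept cell was shallower. Ratios of levels needed at least 20 UMIs over the CD4 and CD8 classes and 50 over mitotic and other cells, and a call needed a 1.5-fold difference. A group with 0 UMIs was set to a floor of 3.

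Cells with exactly 1 productive TRB chain and 1 or more productive TRA chains were given a clonotype, made of the CDR3 nucleotides, V segment and J segment of each chain. Members with at least 200 UMIs over both classes are given with both levels, and Ttk and Anln, which had fewer, with their UMIs. Effector genes with 20 or more positive cells and clones of 20 or more cells are given. Other genes were taken from the 10 highest and 10 lowest ratios per class by the interval bound nearest 1, from up to 4 per gene list, and from the 15 most like the members. The members, lists and rules were chosen with earlier results of these data known. UMIs of a 5′ library count 1 end of each transcript and were not divided by length. Positions of genes count from 1 and were read from GENCODE for mm10. The scripts were tested on simulated data. Python 3.11.15 was used with matplotlib 3.10.9, pandas 2.3.3, scipy 1.17.1 and numpy 2.4.6.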

Additional observations from a re-analysis of the deposited data

How the results depend on the processing

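The lower share of mitotic cells in the CD4 class kept its direction under all 14 alternatives, but the shares themselves followed the rule. They were 20.2% in CD4 and 27.9% in CD8 cells with 2 or more member genes, 11.6% and 16.98% with 5 or more, 11.4% and 16.1% at 1000 UMIs, 21.8% and 31.0% without thinning, 17.4% and 23.1% with clones weighted alike, and 29.0% and 32.3% with the other mitosis genes, chosen after seeing the data, where the log2 ratio was -0.15 in place of -0.52. With the classes set by 2 or more UMIs the CD4 share was 16.8%. The log2 ratio of the summed level, -0.17, was -0.0057 with classes set by 2 or more UMIs, with 19 members below 1. It was -0.24 per cell, -0.13 by median of ratios and -0.28 with 1 cell per clonotype, where 4 members were lower by 1.5-fold. The share of replicating among mitotic cells was 92.4% in CD4 and 92.5% in CD8 cells without thinning, 58.1% in both with 5 or more genes, 51.7% and 61.8% with the other mitosis genes, and 82.6% in CD8 cells at 2500 UMIs.

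The number of effector genes called, 8 in CD4 and 5 in CD8 cells, was 4 and 1 with 2 or more member genes, 4 and 3 with 2 or more UMIs of the effector gene, and 2 and 1 with the other mitosis genes. Without thinning, log2 ratios of CD4 cells turned to 0.80 for Il22, 0.64 for Il13, 0.20 for Ccl5, 0.20 for Prf1 and 0.14 for Fasl, and those of CD8 cells to 0.17 for Prf1 and 0.21 for Fasl. Of genes not called, Ifng turned to 0.57, Il21 to 0.59, Gzmk to 0.49 and Areg to 0.19 in CD4 cells, and Gzmk to 0.71, Areg to 0.46, Csf2 to 0.44, Ifng to 0.42 and Il10 to 0.18 in CD8 cells. With clones weighted alike Il13 was at 0.22 in CD4 cells and Gzmb at -0.095 in CD8 cells, in place of 0.34. The genes lower in mitotic CD4 cells numbered 2216 with at least 10 UMIs in place of 1420 with 50, where more genes were measured. The cause of the other shifts was not tested. Depth and cell number limit the small groups of positive cells. No paired analysis was possible because the series is 1 pooled sample and no result comes from a test.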

Other observations

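Other gene groups also differed between mitotic and other cells. The tubulin gene Tubb5 had 18.5 UMIs per 10000 in mitotic CD4 cells against 3.29 in other CD4 cells, and 17.9 against 3.68 in the CD8 class. Stmn1, which destabilises microtubules, was 18.5-fold higher in CD4 (16.6 to 20.8) and 10.9-fold in CD8 cells (10.05 to 11.9). Pclaf, a partner of the replication clamp, was 22.2-fold and 16.1-fold higher, and Rrm2, a subunit of ribonucleotide reductase, 19.4-fold and 15.9-fold.

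Among genes of helper and regulatory states in the CD4 class, 5 of 7 measured Th2 genes, 5 of 9 Th17 genes and 4 of 7 regulatory T cell genes were lower by 1.5-fold or more in mitotic cells, and 1 Th2 gene, Il5, was higher, where 16.0% of all genes measured were lower and 13.7% higher. Of the interferon response genes 4 of 8 were lower in the CD4 class and 6 of 10 in the CD8 class, where 13.9% of all genes were lower. Hs3st1, a heparan sulfate sulfotransferase, had 0 UMIs in mitotic and 216 in other CD4 cells. Kdm5b, a histone demethylase, had ratios of 0.101 in CD4 (0.045 to 0.195) and 0.110 in CD8 cells (0.056 to 0.197), and Tcp11l2 had 0.116 and 0.130. The chemokine Ccl4 had ratios of 0.238 in CD4 and 0.379 in CD8 cells.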
